A study of Mus musculus with 23 samples.

Results

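Fatty acid oxidation and its control by the nuclear receptor PPARα were followed through 9 genes, Ppara, Cpt1a, Cpt1c, Cpt2, Acadvl, Acadm, Hadha, Pdk4 and Angptl4. They were taken by symbol from the 55335 genes of the count table, and all 9 were found once. Whole hippocampus was read by RNA sequencing in 23 libraries of female mice. The 3xTg model of Alzheimer's disease carries the PS1 M146V mutation as a knock-in (allele Psen1tm1Mpm), together with the human transgenes of Tg(APPSwe,tauP301L)1Lfa, both under the neuron-specific mouse Thy1.2 element. Its strain control (WT) is C57BL/6J x 129S1, the background of the knock-in, and is not stated to be littermates, so strain and transgenes cannot be told apart. Mice of 8 months had no treatment (WT-8M and 3xTg-8M, n = 4 each). Mice of 10 months had carried a pump for 28 days that infused the lateral ventricle with 80 µM of a stearoyl-CoA desaturase inhibitor (SCDi; WT-S, n = 3, and 3xTg-S, n = 4) or with its vehicle of 0.8% DMSO in artificial cerebrospinal fluid (WT-D and 3xTg-D, n = 4 each). Age and infusion differ together, so the ages were not tested against each other.

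Long-chain fatty acids enter mitochondria as carnitine esters, made by carnitine palmitoyltransferase 1 (CPT1) at the outer membrane and undone by CPT2 at the inner one, and are then shortened by acyl-CoA dehydrogenases and the trifunctional protein. PPARα is a receptor for fatty acids that turns on much of this pathway in liver and muscle during fasting, and Pdk4 and Angptl4 are among its best known targets. In brain, oxidation of fatty acids is placed mainly in astrocytes, and SCD, the enzyme inhibited here, makes monounsaturated from saturated fatty acids.

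The promoters of 3 of these genes are shown because the results turn on them, Pdk4 as the member with the smallest p between the strains and Cpt1a and Cpt1c as paralogs read at unequal levels. Each line gives RefSeq sequence of GRCm38.p6 on the strand of the gene, 250 bases before to 50 bases after the start site. Capitals mark the receptor half-site AGGTCA and the CCAAT box, on either strand.
Pdk4 (chr6:5496229-5496528, minus strand): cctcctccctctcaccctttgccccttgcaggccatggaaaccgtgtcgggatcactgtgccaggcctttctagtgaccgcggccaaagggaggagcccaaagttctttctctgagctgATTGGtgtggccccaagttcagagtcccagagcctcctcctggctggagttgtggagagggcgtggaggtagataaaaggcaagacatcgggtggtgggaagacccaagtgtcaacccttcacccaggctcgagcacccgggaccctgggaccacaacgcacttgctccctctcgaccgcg
Cpt1a (chr19:3323051-3323350, plus strand): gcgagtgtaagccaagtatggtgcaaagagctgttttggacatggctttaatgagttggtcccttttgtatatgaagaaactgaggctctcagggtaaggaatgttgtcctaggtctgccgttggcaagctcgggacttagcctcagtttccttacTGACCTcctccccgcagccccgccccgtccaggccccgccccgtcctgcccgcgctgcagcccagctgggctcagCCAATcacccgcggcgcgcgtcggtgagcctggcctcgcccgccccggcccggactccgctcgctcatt
Cpt1c (chr7:44974802-44975101, minus strand): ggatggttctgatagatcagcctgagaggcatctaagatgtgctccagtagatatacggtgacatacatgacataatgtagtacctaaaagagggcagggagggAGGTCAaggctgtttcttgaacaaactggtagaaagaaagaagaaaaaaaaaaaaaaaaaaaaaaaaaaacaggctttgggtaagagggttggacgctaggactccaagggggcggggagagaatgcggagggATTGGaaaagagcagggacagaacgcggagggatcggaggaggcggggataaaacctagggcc
PPARα binds with its partner RXR to 2 such half-sites set 1 base apart, AGGTCANAGGTCA. A promoter entry was matched for 8 of the 9 members, all but Angptl4. The half-site was found in 4 of these 8 (Cpt1a, Cpt1c, Acadvl and Acadm), where 16.3% of 32851 promoters of this length hold it. The full element was found in 0 of 8, and in 0.0396% of all promoters, and its looser form AGGNCANAGGNCA in 0 of 8 and in 0.381%. The CCAAT box stood in Pdk4, Cpt1a and Cpt1c, and in 37.4% of all promoters. These are matches of letters within 300 bases and say nothing on binding outside this window.

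Untreated mice were read with 12.8 M to 36.7 M gene counts per library and infused mice with 12.99 M to 17.6 M. Neuronal markers summed to 8592 to 10551 CPM (read counts scaled to one common library total) in every library, and astrocyte markers to 4762 to 6302 CPM, with 0 of 10 genes of either list at 0. The library 3xTg-D replicate 3 stood apart in its thalamus markers, with a summed 137.6 CPM against 100.1 to 130.7 CPM in the other libraries, and was also the lowest in blood markers (4.73 CPM, the others from 20.7 CPM) and in the oligodendrocyte score (-0.76, the next at -0.44). In whole tissue, fewer cells of a type and less RNA per cell cannot be told apart.

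Levels of different genes were compared as CPM per kilobase of exons. Cpt1c, the brain form of CPT1 that has little transferase activity, stood highest at 16.5 CPM per kb, at percentile 82.5 of 16546 genes. Cpt1a, the form that limits entry into mitochondria in most tissues, was at 4.05 CPM per kb. Between them stood the enzymes of the oxidation cycle, Acadvl (14.6), Acadm (10.0) and Hadha (9.43 CPM per kb), and Pdk4 (4.88 CPM per kb). Cpt2 was at 2.29, Ppara at 0.677 and Angptl4 at 0.438 CPM per kb, the last at percentile 12.3. Ppara was read with 24 to 104 counts per library and Angptl4 with 12 to 56, and their values carried the widest spread, with mean coefficients of variation within groups of 24.9% and 23.9% against 4.50% for Acadm. The value of Acadvl is uncertain, because 42.9% of its exon bases lie opposite exons of Dvl2, and the sources do not say whether reads were counted by strand. For Cpt1c the share opposite another gene was 6.53%.

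**Figure D1:**
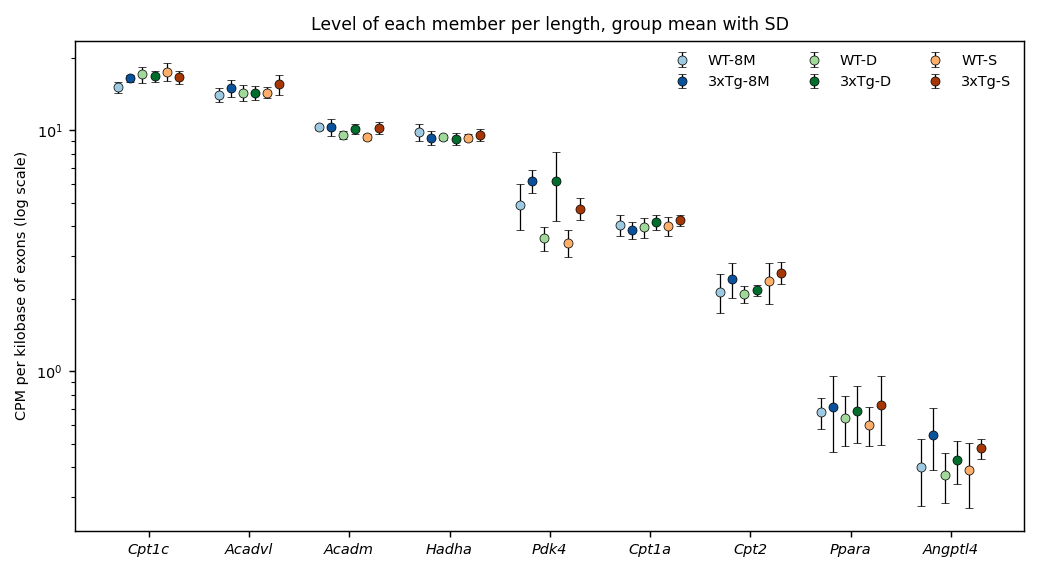
Mean level of each member in CPM per kilobase of exons, on a log axis, in the 6 groups, with the SD between libraries (n = 4, and 3 in WT-S). Cpt1c and Acadvl stood highest and Ppara and Angptl4 lowest in every group, and Pdk4 showed the widest spread between groups among members above 1 CPM per kb.

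Across the 6 groups the members of the oxidation cycle and of the carnitine shuttle stayed close together, and Pdk4 did not. The ratio of the highest to the lowest group mean was 1.80 for Pdk4, 1.47 for Angptl4, 1.23 for Cpt2 and 1.20 for Ppara, and between 1.07 (Hadha) and 1.16 (Cpt1c) for the other 5. By edgeR's quasi-likelihood test with Benjamini-Hochberg adjustment over all genes, 0 of 9 members were called at an adjusted p under 0.05 in each of the 8 comparisons made. Of all genes tested, 2.58% were called in 3xTg-8M against WT-8M, 1.39% in 3xTg-D against WT-D, 1.32% in 3xTg-S against WT-S and 2.29% in 3xTg-S against WT-D. The inhibitor within 3xTg, within WT and over both strains, and its interaction with strain, gave 0 called genes. In those 4 comparisons 11.2%, 3.42%, 13.8% and 2.32% of genes had an unadjusted p under 0.05, and DESeq2 called 14 genes in 3xTg-S against 3xTg-D and 43 for the inhibitor over both strains. The median log2 fold change over the 9 members was 0.10, 0.08 and 0.12 in the strain comparisons at 8 months, under vehicle and under inhibitor, where that over all genes tested was 0.01, -0.00 and 0.00. Members above 0 numbered 7, 6 and 8 of 9, against 51.3%, 49.0% and 51.2% of all genes. In 3xTg-S against 3xTg-D, in WT-S against WT-D, for the inhibitor over both strains and for the interaction they numbered 7, 6, 6 and 7, against 49.5%, 50.6%, 50.2% and 50.6% of all genes.

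At an unadjusted p under 0.05, Pdk4 passed in all 3 strain comparisons (17.4%, 13.1% and 10.6% of all genes passed), in 3xTg-S against WT-D (16.9%) and in 3xTg-S against 3xTg-D. Cpt2 passed in 3xTg-S against WT-D and for the inhibitor over both strains, and the other 7 members in no comparison. At the study's threshold, an unadjusted p under 0.01, Pdk4 alone passed, in 3xTg-D against WT-D, in 3xTg-S against WT-S and in 3xTg-S against WT-D, where 4.95%, 4.14% and 6.59% of all genes passed. In the other 5 comparisons 0 of 9 members passed it, with 6.88% of all genes at 8 months, 2.52% in 3xTg-S against 3xTg-D, 0.375% in WT-S against WT-D, 4.10% for the inhibitor over both strains and 0.351% for the interaction.

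**Figure D2:**
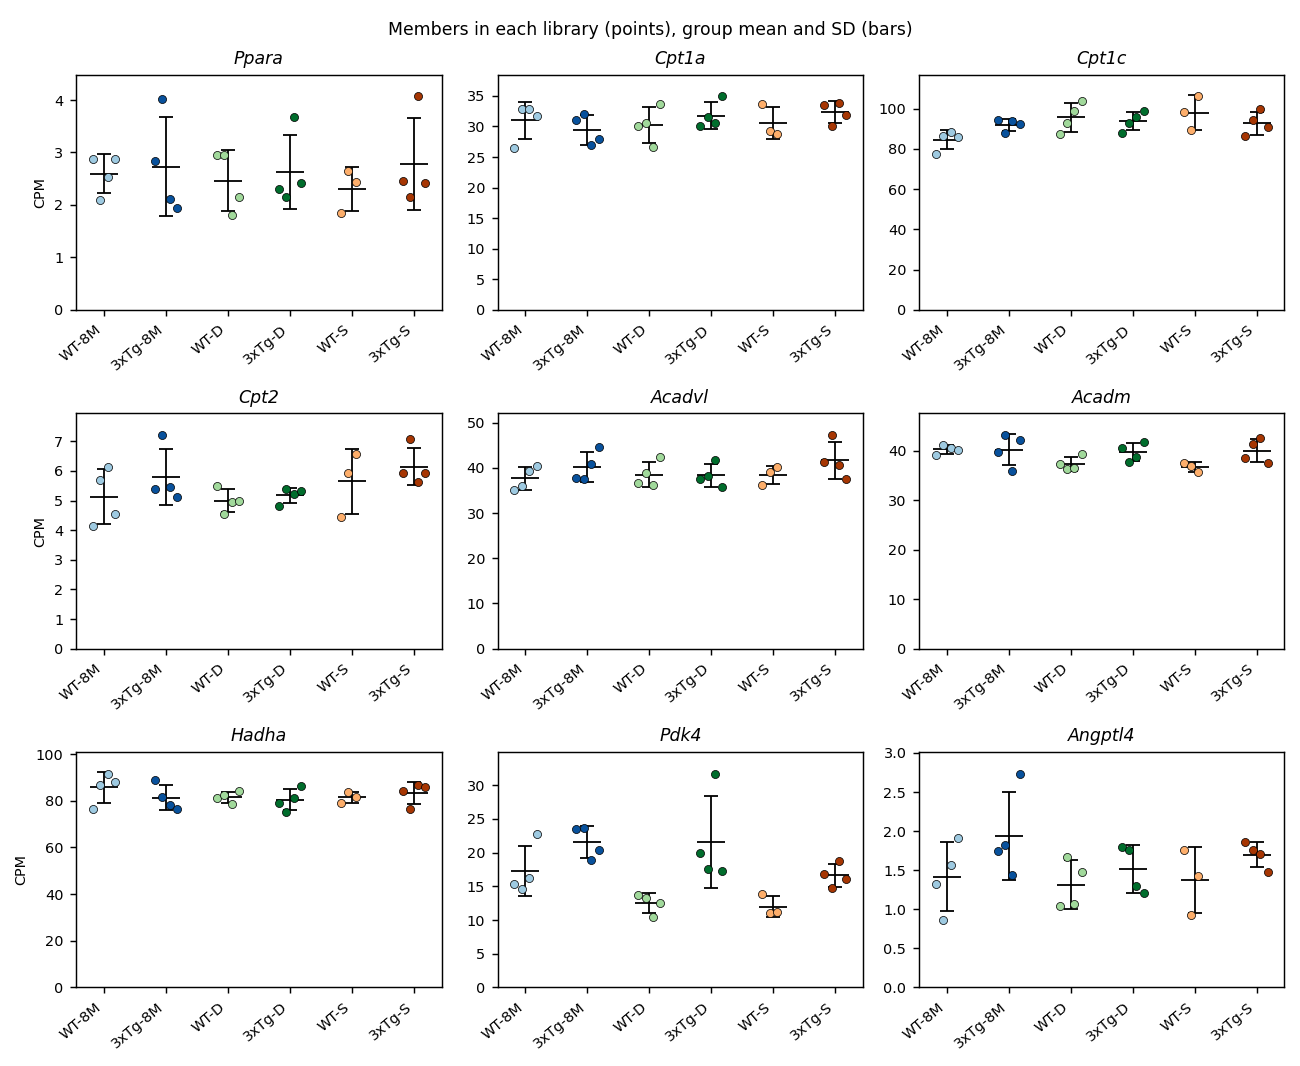
CPM of each member in every library (points) with the group mean and SD (bars), each axis starting at 0. The libraries of most members overlap between all groups, while every 3xTg library of 10 months lies above every WT library of that age for Pdk4. How many of all genes do so was not counted.

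Pdk4 (ENSMUSG00000019577, chr6:5483351-5496309, minus strand) encodes pyruvate dehydrogenase kinase 4, which shuts the entry of pyruvate into the citric acid cycle when fatty acids are burnt. At 10 months the WT-D libraries held 13.7, 13.3, 10.5 and 12.6 CPM and the WT-S libraries 13.8, 11.03 and 11.2 CPM. The 3xTg-D libraries held 19.9, 17.6, 31.7 and 17.2 CPM, and the 3xTg-S libraries 16.9, 14.7, 18.8 and 16.1 CPM. All 8 libraries of 3xTg thus lay above all 7 of WT, the nearest being 14.7 CPM in 3xTg-S and 13.8 CPM in WT-S. The share of all genes that separated the strains in this way over both treatments was not counted. At 8 months the strains overlapped, with 15.3, 14.7, 16.2 and 22.7 CPM in WT-8M and 23.5, 23.7, 18.9 and 20.4 CPM in 3xTg-8M, where a single WT-8M library reached into the 3xTg range.

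Under vehicle, Pdk4 was 1.74-fold higher in 3xTg-D than in WT-D (log2 fold change 0.80, SE 0.18, 95% interval 0.40 to 1.20). The unadjusted p was 0.000918, rank 235 of 15528 genes, and the edgeR adjusted p of 0.0606 missed the threshold. Under the inhibitor it was higher in 3xTg-S than in WT-S by a log2 fold change of 0.47 (SE 0.12, edgeR adjusted p 0.1003). Without WT-S replicate 1, the WT-S library with the most Pdk4, it was 0.59 and called (edgeR adjusted p 0.0334). Without WT-S replicate 2 or 3 it was 0.41 in each case and not called (edgeR adjusted p 0.296 and 0.28). The comparisons under vehicle and under the inhibitor share no library, and the groups did not overlap in either, as was the case for 8.05% and 10.2% of all genes. At 8 months the log2 fold change was 0.33 (SE 0.13, unadjusted p 0.0298, edgeR adjusted p 0.236). It was 0.50 without WT-8M replicate 4, the library at 22.7 CPM, and Pdk4 was then called (edgeR adjusted p 0.0364). Without WT-8M replicate 1, 2 or 3 it was 0.26, 0.27 and 0.31 and not called (edgeR adjusted p 0.461, 0.449 and 0.303).

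The strain effect was also fitted over both treatments in the 15 libraries of 10 months, a test chosen after seeing the data. In that fit Pdk4 rose 1.58-fold in 3xTg (log2 fold change 0.66, SE 0.13, 95% interval 0.39 to 0.92, edgeR adjusted p 0.00283), where 6.32% of 15864 genes were called. Without 3xTg-D replicate 3 the log2 fold change was 0.51 (SE 0.08, edgeR adjusted p 0.000455). The other 8 members were not called, and Acadm came next (log2 fold change 0.11, SE 0.04, edgeR adjusted p 0.128).

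The library 3xTg-D replicate 3 held the most Pdk4, 31.7 CPM, and weighed on the comparison under vehicle in both directions. Without it the log2 fold change was smaller at 0.56, yet the spread within 3xTg-D shrank and Pdk4 was called (edgeR adjusted p 0.0259). Pdk4 was called in 4 of 16 other settings of this comparison, the DESeq2 likelihood ratio test among them (adjusted p 0.00176). Its log2 fold change ran from 0.42 to 0.90 over these 16. They leave aside the astrocyte and thalamus covariates and the fits of strain over both treatments.

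Markers of other cells and regions were set beside Pdk4. Over the 23 libraries, each age centred, its log2 CPM had a Pearson r of 0.69 with the astrocyte score, 0.65 with the thalamus score and -0.56 with the neuron score, a description over libraries that share strain. Without 3xTg-D replicate 3 these were 0.71, 0.37 and -0.48, and r with the microglia score, 0.38 over all libraries, was 0.79. Leaving this library out of correlations, lists and other genes was chosen after seeing the data. Of 10 astrocyte and 6 thalamus markers, 0 were called under vehicle, with a median log2 fold change of 0.13 and 0.21. Of 10 microglia markers, 2 were called higher in 3xTg under vehicle (median 0.29) and 4 under the inhibitor (median 0.38). Of all genes, 1.39% and 1.32% were called there. Without 3xTg-D replicate 3, 5 of 10 were called under vehicle (median 0.43). At 8 months 0 of 10 were called (median 0.28), with 4 higher at an unadjusted p under 0.05. That threshold was passed by 17.4% of all genes at 8 months and by 13.1% under vehicle, in either direction. Of 10 oligodendrocyte markers 0 were called under vehicle and 4 under the inhibitor (median 0.31), and of 6 choroid plexus markers under vehicle 0 were called and 3 were higher at an unadjusted p under 0.05. In WT-D, astrocyte markers summed to 5231 to 5446 CPM and thalamus markers to 107.2 to 130.7 CPM, and in 3xTg-D to 5078 to 5951 and to 113.0 to 137.6 CPM. With the thalamus score as a covariate, chosen after seeing the data, the log2 fold change of Pdk4 under vehicle was 0.37 (edgeR adjusted p 0.322), and with the astrocyte score 0.62 (adjusted p 0.402). With the choroid plexus score it was 0.42 (adjusted p 0.620). Under the inhibitor it was 0.47 with the thalamus score and 0.35 with the astrocyte score, and Pdk4 was not called in either fit. The difference stayed above 0 in each of these fits and was called in none. The microglia score was not used as a covariate, and the part of the markers in the difference was not tested further.

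**Figure D3:**
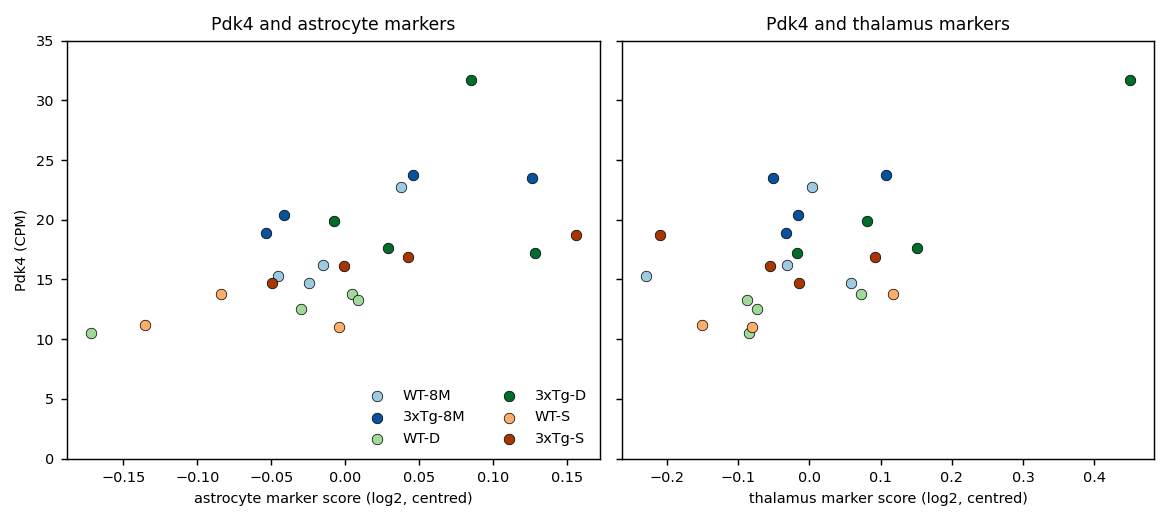
Pdk4 in CPM against the astrocyte and the thalamus marker score of each library, the mean over markers of log2 CPM less the mean over the 23 libraries, coloured by group. A single 3xTg-D library stands at the top right of the thalamus panel at 31.7 CPM, and all 8 libraries of 3xTg of 10 months lie above the 7 of WT in both panels. The share of all genes with such a separation was not counted.

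The genes whose levels ran most like Pdk4 over the 23 libraries were Icosl (Pearson r 0.93), Plcd4 (0.92) and Hist2h2be (0.89), out of 11643 genes. With 3xTg-D replicate 3 left out these were 0.88, 0.88 and 0.80. The 3 genes were picked by likeness to Pdk4 over libraries that share strain. A strain difference in them is thus partly built into the choice and is no separate evidence. Icosl, the ligand of a T cell costimulatory receptor, was at 13.7 ± 1.12 CPM in WT-8M and 20.7 ± 2.78 CPM in 3xTg-8M (SD, n = 4 each). It rose there by a log2 fold change of 0.61 (SE 0.11, edgeR adjusted p 0.00972). It was also higher in 3xTg-S than in WT-S (0.54, edgeR adjusted p 0.0383) and at 0.81 in 3xTg-D against WT-D (adjusted p 0.0655), or 0.54 without 3xTg-D replicate 3 (adjusted p 0.0192). Plcd4, a phospholipase C, has 29.8% of its exon bases opposite Zfp142, so its value is uncertain. Hist2h2be was not called at 8 months, under vehicle or under the inhibitor (edgeR adjusted p 0.271, 0.0681 and 0.468). Its log2 fold changes there were 0.25, 0.83 and 0.30.

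The inhibitor comparisons gave no call for Pdk4. In 3xTg-S against 3xTg-D the log2 fold change was -0.39 (SE 0.17, 95% interval -0.77 to -0.02, unadjusted p 0.0422, edgeR adjusted p 0.436), and the groups overlapped. Without 3xTg-D replicate 3 it was -0.14 (unadjusted p 0.168), and with the thalamus score as a covariate -0.06. In WT-S against WT-D it was -0.06 (SE 0.13, 95% interval -0.34 to 0.22). The interaction of strain and inhibitor was -0.33 (SE 0.25, 95% interval -0.85 to 0.19, unadjusted p 0.197), and without 3xTg-D replicate 3 it was -0.08, so a different response in the 2 strains was not shown.

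**Figure D4:**
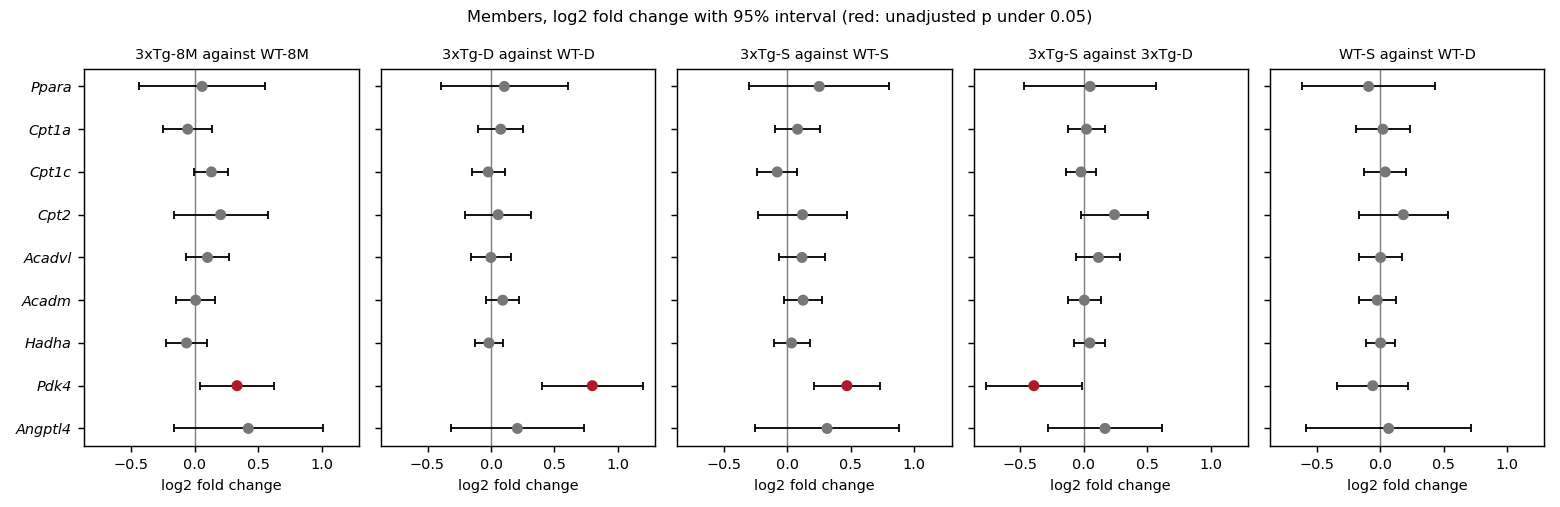
Log2 fold change of each member with its 95% interval in the 3 strain comparisons and the 2 inhibitor comparisons, in red where the unadjusted p is under 0.05. Pdk4 is the one member in red, to the right in the strain panels (0.33, 0.80 and 0.47) and to the left in 3xTg-S against 3xTg-D (-0.39), and 0 of 9 pass after adjustment.

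Of the carnitine palmitoyltransferases, Cpt1a had group means between 29.5 and 32.3 CPM, whose neighbours in order did not differ beyond their SD. Its fold change under vehicle was 1.05 with a 95% interval of 0.933 to 1.19, so a strain difference of 1.2-fold lies outside the interval. Cpt1c had its lowest mean in WT-8M (84.5 ± 4.80 CPM against 91.96 ± 2.95 CPM in 3xTg-8M, SD over 4 mice each), with a log2 fold change of 0.13 (SE 0.06, unadjusted p 0.0530, edgeR adjusted p 0.295). At 10 months its intervals were 0.900 to 1.08-fold under vehicle and 0.848 to 1.06-fold under the inhibitor. The muscle form Cpt1b was listed at no more than 0.149 CPM in any library, but 92.1% of its stretches of 75 bases also occur in Gm44502, so its level is uncertain.

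Cpt2, which frees acyl-CoA inside the mitochondrion, had its smallest p for the inhibitor in the fit over both strains. Its libraries held 4.81, 5.39, 5.21 and 5.31 CPM in 3xTg-D and 5.95, 7.07, 5.64 and 5.93 CPM in 3xTg-S, with no overlap, as for 6.88% of all genes, and an unadjusted p of 0.0663. In WT they overlapped, at 5.51, 4.55, 4.94 and 4.99 CPM in WT-D and 4.45, 5.95 and 6.58 CPM in WT-S (unadjusted p 0.271). Over both strains the log2 fold change was 0.22 (SE 0.09, 95% interval 0.02 to 0.41, unadjusted p 0.0297, edgeR adjusted p 0.306), which missed the threshold after adjustment. Over the 23 libraries, each age centred, Cpt2 had a Pearson r of 0.49 with the score of pericytes and smooth muscle and 0.48 with that of endothelium. With the blood score it was 0.44 and with the neuron score -0.43. The markers of these 4 lists had medians of 0.26, 0.13, 0.99 and -0.03 for the inhibitor over both strains, with 0 called. Their part in the difference was not tested. In 3xTg-S against WT-D it was 0.30 (SE 0.13, edgeR adjusted p 0.246).

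The enzymes of the oxidation cycle differed little between groups. Hadha, the alpha subunit of the trifunctional protein, had group means of 80.4 to 85.7 CPM, and its interval over both strains for the inhibitor was 0.966 to 1.08-fold. Acadm, the medium-chain dehydrogenase, had group means of 36.6 to 40.2 CPM and an interval of 0.938 to 1.05-fold for the inhibitor. Acadvl, the very-long-chain dehydrogenase, had means of 37.7 to 41.7 CPM and an interval of 0.964 to 1.13-fold. For each of the 3, a 1.2-fold change by the inhibitor lies outside the interval of this fit over both strains. In 3xTg-S against 3xTg-D alone the interval of Acadvl was 0.961 to 1.22-fold, which holds it.

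Ppara itself had group means of 2.31 to 2.78 CPM, and its intervals were wide, 0.760 to 1.52-fold for the strain under vehicle and 0.773 to 1.27-fold for the inhibitor. Angptl4, a secreted inhibitor of lipoprotein lipase, was at 1.42 ± 0.442 CPM in WT-8M and 1.94 ± 0.559 CPM in 3xTg-8M (SD, n = 4 each). Its log2 fold change between the strains was 0.42 (SE 0.27) at 8 months, 0.21 (SE 0.24) under vehicle and 0.31 (SE 0.26) under the inhibitor, with unadjusted p of 0.142, 0.405 and 0.253. A strain difference in Ppara or Angptl4 was not called, and the interval for Angptl4 at 8 months reached 2.01-fold.

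The wider pathway was read from 11 lists with 134 tested genes besides the members. At 8 months 2 of the 134 were called (1.49%, where 2.58% of all genes were), under vehicle 3 (2.24%) and in 3xTg-S against WT-D 3 (2.24%), and 0 in the other 5 comparisons. Lipg, the endothelial lipase that cleaves lipoprotein phospholipids, rose in 3xTg in both vehicle and untreated mice. It was at 1.27 ± 0.181 CPM in WT-8M and 2.38 ± 0.508 CPM in 3xTg-8M, a log2 fold change of 0.91 (SE 0.21, edgeR adjusted p 0.0413). Under vehicle WT-D stood at 1.21 ± 0.161 and 3xTg-D at 2.36 ± 0.410 CPM (SD over 4 mice each), a log2 fold change of 0.96 (SE 0.21, edgeR adjusted p 0.0445). Leaving out 3xTg-D replicate 3 made it 0.99 and not called (adjusted p 0.0689). In 3xTg-S against WT-S the difference was 0.48 (SE 0.44), with WT-S libraries from 0.429 to 2.84 CPM.

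**Figure D5:**
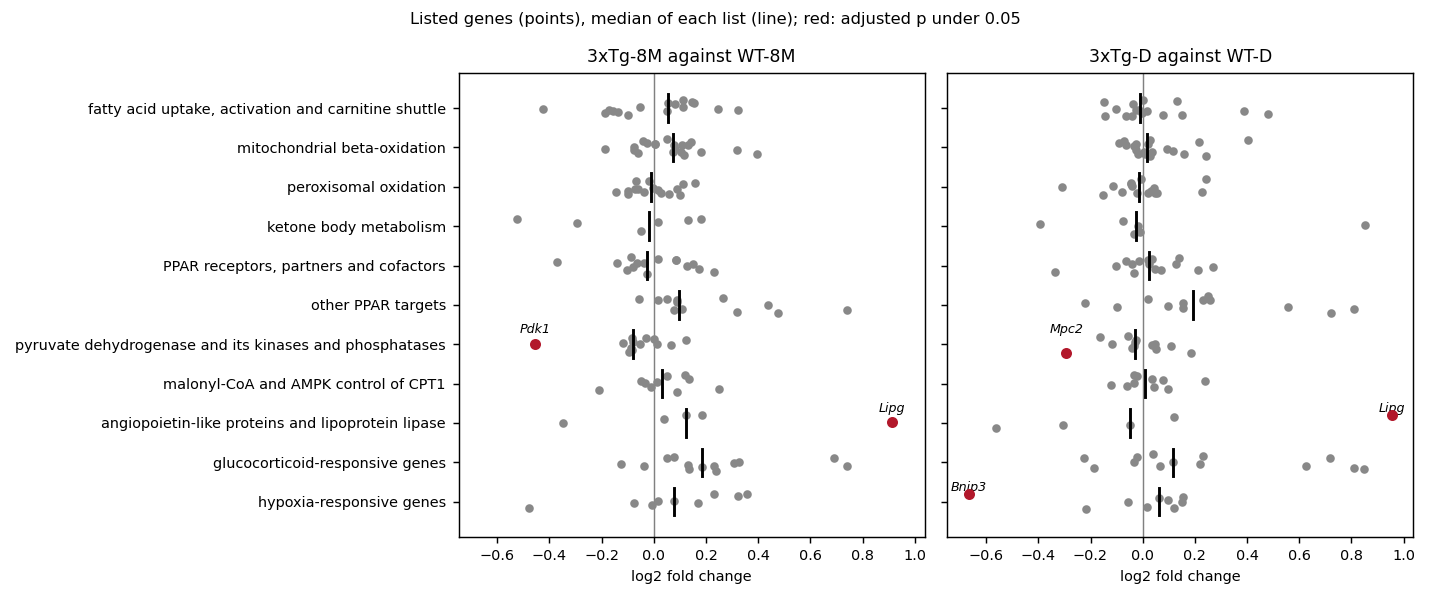
Log2 fold change of the listed pathway genes (points) in the strain comparisons at 8 months and under vehicle, with the median of each list (line) and called genes named in red. Lipg lies to the right in both panels (0.91 and 0.96), and Pdk1 (-0.46) at 8 months and Mpc2 (-0.29) and Bnip3 (-0.67) under vehicle are the genes named to the left.

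Around pyruvate dehydrogenase, Pdk1, another kinase of the complex, fell in 3xTg-8M, from 82.6 ± 11.6 to 59.9 ± 0.844 CPM (SD over 4 mice each). Its log2 fold change was -0.46 (SE 0.09, edgeR adjusted p 0.0268). Under vehicle the difference was -0.03 (SE 0.06), and under the inhibitor -0.27 (SE 0.07, adjusted p 0.127). Pdk2 and Pdk3, the remaining kinases, added after their values were seen, had log2 fold changes of 0.11 and -0.03 under vehicle and were not called. Mpc2, a subunit of the mitochondrial pyruvate carrier, fell in 3xTg-D from 81.3 ± 4.29 to 66.2 ± 3.03 CPM (SD over 4 mice each), a log2 fold change of -0.29 (SE 0.05, edgeR adjusted p 0.0208). Without 3xTg-D replicate 3 it was -0.28 and just not called (adjusted p 0.0509), and at 8 months it was -0.00 (SE 0.10). Of 13 tested genes of this list, 1 was called in each of these 2 comparisons.

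Of the other PPAR targets, 12 of 20 were tested and 0 were called, with medians of 0.10 at 8 months, 0.19 under vehicle and 0.04 under the inhibitor between the strains. Those with the smallest p under vehicle were Txnip, an inhibitor of thioredoxin (log2 fold change 0.72, SE 0.19, edgeR adjusted p 0.105), and Slc25a34, a mitochondrial carrier (0.56, SE 0.17, adjusted p 0.163). They were at 0.48 and 0.48 without 3xTg-D replicate 3, and the median of the 12 under vehicle was 0.03. Txnip shares 19.4% of its exon bases with Gm15441 on the opposite strand and is uncertain. Of 13 glucocorticoid-responsive genes, which share Pdk4's known response to this hormone, 0 were called under vehicle, with 3 higher and 2 lower at an unadjusted p under 0.05. Of all genes, 13.1% passed there in either direction. Of 15 genes for PPAR receptors, partners and cofactors, 0 were called in any comparison. Peroxisomal oxidation (16 of 18 tested) and ketone body metabolism (6 tested) had 0 called as well. Fatty acid uptake, activation and the carnitine shuttle (16 of 17 tested) had 0 called between the strains at 8 months, with 1 higher and 5 lower at an unadjusted p under 0.05, and 0 under vehicle, with 3 higher and 2 lower. At that threshold 17.4% of all genes passed at 8 months and 13.1% under vehicle, in either direction.

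Among the mitochondrial beta-oxidation genes other than the members, 0 were called for the inhibitor. In 3xTg-S against 3xTg-D, 15 of 20 were above 0 (49.5% of all genes), with a median of 0.11 against -0.00 over all genes. Of the 20, 4 had an unadjusted p under 0.05, all higher, where 11.2% of all genes passed in either direction. Etfa, which carries electrons from the dehydrogenases, had the smallest p (log2 fold change 0.22, SE 0.06, unadjusted p 0.00193, edgeR adjusted p 0.378). Over both strains 15 of 20 were above 0 with a median of 0.10, where 50.2% of all genes were above 0. Without 3xTg-D replicate 3, 17 of 20 were above 0 within 3xTg, with a median of 0.08 and 2 at an unadjusted p under 0.05. Markers of several cell types stood higher beside them in 3xTg-S than in 3xTg-D, with 0 called. The median was 0.32 over 10 oligodendrocyte markers (5 at an unadjusted p under 0.05). It was 0.23 over 10 of pericytes and smooth muscle (3), 0.17 over 10 of endothelium (2) and 1.22 over 5 of blood (1). Astrocyte, neuron and thalamus markers had medians of -0.06, -0.00 and -0.22. Without 3xTg-D replicate 3 the oligodendrocyte median was 0.13 (4) and that of pericytes and smooth muscle 0.26 (3). Endothelium then had 0.12 (0) and blood 0.80 (0). The part of these markers in the difference was not tested. With a trend on transcript length and GC removed from each library, applied to this list after seeing the data, the medians were 0.06 in both comparisons, with 14 and 15 of 20 above 0. Between the strains in the main fits, 14, 12 and 18 of 20 were above 0 at 8 months, under vehicle and under inhibitor. The medians were 0.07, 0.01 and 0.06, and 51.3%, 49.0% and 51.2% of all genes were above 0.

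In 3xTg-S against WT-D, Crot, the peroxisomal carnitine octanoyltransferase, rose from 39.6 ± 2.15 to 48.3 ± 3.16 CPM (SD over 4 mice each), a log2 fold change of 0.29 (SE 0.07, edgeR adjusted p 0.0457). In 3xTg-D against WT-D it was at 0.39 (SE 0.09, adjusted p 0.0618). Prkaa2, the alpha 2 subunit of AMPK, which relieves the block of CPT1 by malonyl-CoA, fell from 47.3 ± 5.16 to 36.8 ± 1.53 CPM, a log2 fold change of -0.36 (SE 0.08, edgeR adjusted p 0.0373). Its difference for the inhibitor over both strains was -0.23 (SE 0.05, unadjusted p 0.000261, adjusted p 0.234). For the inhibitor Prkaa2 was at -0.24 within 3xTg and -0.22 within WT. Between the strains it was at -0.12 under vehicle and -0.13 under the inhibitor, and it was called in none of these. Bnip3, a mitophagy receptor of the hypoxia list, was lower in 3xTg-D than in WT-D (-0.67, SE 0.10, edgeR adjusted p 0.00559) and in 3xTg-S than in WT-D (-0.48, adjusted p 0.0475), but 46.3% of its stretches of 75 bases also occur in other annotated genes, so its value is uncertain. The comparisons with WT-D share its libraries, and 3xTg-S differs from WT-D in both strain and treatment.

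Genes next to the members were examined within 1 Mb. Of 11 genes tested around Pdk4, 0 were called at 8 months and 0 under vehicle, and of 10 under the inhibitor 0. Around all 9 members, 7 of 353 neighbours were called at 8 months, 2 of 357 under vehicle and 1 of 358 under the inhibitor. Of all genes, 2.58%, 1.39% and 1.32% were called there. Klk1b22, near Cpt1c, was called in each of the 3 strain comparisons.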

How the data were processed

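RNA of whole hippocampus was sequenced single-end from polyadenylated libraries on a NextSeq. The authors trimmed reads with Trimmomatic 0.35 and aligned them to GRCm38 with STAR 2.5.1b, with a Gencode M23 annotation per their methods. The deposited values are raw counts of reads per gene, not normalised or filtered, and replicates were not pooled. The strand setting and any collapsing of molecular identifiers are not given in the sources used here. The study itself tested pairs of groups with the likelihood ratio test of DESeq2 at an unadjusted p under 0.01. All sample columns were used (0 left out). The 4 lines that name no gene held 25.0% to 30.9% of reads in untreated and 24.7% to 27.5% in infused mice and entered no library size and no test.

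Groups were taken from the labels. Counts were tested with edgeR 4.0.16 in R 4.3.3 (filterByExpr, TMM, quasi-likelihood test) on the libraries of the groups compared, with Benjamini-Hochberg adjustment over all genes tested, and genes with an adjusted p under 0.05 are called. The inhibitor over both strains and its interaction with strain were fitted on the 15 libraries of 10 months. The SE is the log2 fold change over the square root of F, and 95% intervals use the t distribution with the test's degrees of freedom. The fits were tested on simulated data. CPM was scaled by TMM over 23 libraries. Exon length and overlaps came from Gencode M21, promoters from RefSeq. Marker scores are means of centred log2 CPM (prior count 2) over markers above a mean of 0.5 CPM.

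All 9 members are named in every comparison. Of the 11 pathway lists, genes are named if called, or the 2 of smallest p in a list with none called, though not every such pair is printed. The 3 genes most like a member were taken among those of at least 5 CPM. The members and lists were chosen with earlier results of these data known. Nothing says that libraries of a group came from separate litters or days, so p-values measure the spread between these libraries. Alternatives were DESeq2 size factors, no filter, DESeq2 1.42.0, a length and GC trend, a choroid plexus covariate, a replicate block, all 15 libraries in one fit, the study's threshold, and leaving out each replicate.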

Additional observations from a re-analysis of the deposited data

Results flagged for a closer look

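Of 45 sets of libraries (a member in a group of 4), 2 held a library far from the other 3 by Dixon's ratio, where chance gives about 1 in 20, or 2.25. Ppara stood at 4.08 CPM in 3xTg-S replicate 3, against 2.14 to 2.46 CPM in the other 3 libraries of 3xTg-S. Cpt2 stood at 7.22 CPM in 3xTg-8M replicate 2, against 5.14 to 5.45 CPM in the other 3 libraries of 3xTg-8M.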

How the results depend on the processing

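Genes called at 8 months numbered 399, and 854 without a filter on low counts and 712 with DESeq2. Under vehicle (3xTg-D and WT-D) the 216 became 792 and 414 under these settings, 98 with the choroid plexus score and 355 with all 15 libraries in one fit. In 3xTg-S against 3xTg-D the count of 0 became 112 without a filter, 14 with DESeq2 and 1 with the replicate block, and in WT-S against WT-D 2 without a filter. Under the inhibitor (3xTg-S and WT-S) the 206 became 729 without a filter and 87 with the replicate block. In 3xTg-S against WT-D the 356 became 1135 without a filter and 583 with DESeq2. For the inhibitor over both strains 0 became 94 and 43, and for the interaction 0 became 8 without a filter. At an unadjusted p under 0.01 the share of genes passing went from 2.58% to 6.88% at 8 months, from 1.39% to 4.95% and from 1.32% to 4.14% between the strains under vehicle and inhibitor, from 2.29% to 6.59% in 3xTg-S against WT-D, and from 0 to 2.52%, 0.375%, 4.10% and 0.351% in the others. Among settings added after seeing the data, the vehicle comparison gave 130 calls with the astrocyte and 136 with the thalamus score, 1003 for the strain over both treatments and 954 for the same without 3xTg-D replicate 3, and the astrocyte score gave 76 under the inhibitor. The causes were not tested.

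Members called went from 0 to 1, always Pdk4, without a filter and at an unadjusted p under 0.01 between the strains under vehicle, under inhibitor and in 3xTg-S against WT-D, with DESeq2 in the first and the last, and under vehicle also with all 15 libraries and with the strain over both treatments, with or without 3xTg-D replicate 3. With a replicate left out, calls ran from 227 to 449 at 8 months, 125 to 200 under vehicle, 105 to 286 under inhibitor, 155 to 341 in 3xTg-S against WT-D, 0 to 0 for the interaction, and 0 to 1 in the other 3. Members called then ran from 0 to 1 in the strain comparisons and in 3xTg-S against WT-D, and stayed at 0 in the other 4. The library whose absence gave the call of Pdk4 was WT-8M replicate 4, 3xTg-D replicate 3, WT-S replicate 1 and, in 3xTg-S against WT-D, 3xTg-S replicate 2.

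The labels give animal numbers, not pairs. At 10 months, deviations of libraries of different groups in the same run of 4 animal numbers had a mean r of 0.0125 (21 pairs). Of these, 3 were above 0.1, against 6 of 63 pairs of different runs, whose mean r was -0.00413. Libraries of the same run were taken to share only a number. With the replicate block the log2 fold change of Pdk4 was 0.76 under vehicle (edgeR adjusted p 0.0933) and 0.46 under the inhibitor (adjusted p 0.423). Counts were lowest for Ppara and Angptl4 among the members, with as few as 24 and 12 in a library.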

Other observations

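Members were compared with each other over the 23 libraries, each age centred, as a description of libraries that share strain and depth. The closest pair was Cpt1a with Hadha (Pearson r 0.66), followed by Cpt1a with Acadm (0.55) and Acadvl with Angptl4 (0.52). Ppara and Cpt1a, like Pdk4, ran with the astrocyte score (r 0.66 and 0.60). The genes most like Angptl4 were Dnajc4 (0.79), Armc6 (0.78) and Prmt2 (0.76), and those most like Cpt2 were Egfl7 (0.71), Prkrip1 (0.70) and 2510039O18Rik (0.69).

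Among pathway genes with no place above, Angptl2 had a log2 fold change of 0.71 (SE 0.23, unadjusted p 0.00621, edgeR adjusted p 0.235) for the inhibitor over both strains. It did not pass the threshold.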
